A study of Mus musculus with 16 samples.

Results

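The chemokine system of mouse liver was examined across 16 Agilent arrays through 57 genes, chosen by name as the CC, CXC, CX3C and XC chemokines and their receptors together with Ccrl2. These were 57 of the 36451 gene names on the array, and 46 of them, 29 ligands and 17 receptors, had a probe well above background on at least 3 arrays and were tested among 24319 genes. The study used the arrays to ask how lipocalin 2, a secreted protein encoded by Lcn2, acts in the liver scarred by carbon tetrachloride (CCl4), a solvent that hepatocytes turn into a toxic radical. WT control mice (4 arrays) were male BALB/c wild type mice given corn oil, and WT CCl4 mice (5 arrays) were given CCl4 in corn oil. Lcn2-/- control (3 arrays) and Lcn2-/- CCl4 (4 arrays) mice were male BALB/c mice lacking Lcn2 and treated the same ways. All were 6 to 8 weeks old at the start, CCl4 was injected into the peritoneum at 0.5 ml/kg 2 times a week for 4 weeks, and the livers were collected 48 h later than the final dose. The Lcn2-/- line was made on another background and backcrossed to BALB/c. The labels number the arrays within each group without saying whether each is a separate mouse, so the p values measure the spread between these arrays.

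Chemokines are small secreted proteins that bind heptahelical receptors on leukocytes and set up the gradients along which these cells leave the blood. In injured liver they are made by Kupffer cells, stellate cells, sinusoidal endothelium, bile duct cells and hepatocytes. CCR2 and CX3CR1 mark blood monocytes and the macrophages that derive from them, CXCR1 and CXCR2 mark neutrophils, and CXCR3 is found on T cells and NK cells. Many of the ligands that call these cells are switched on by NF-kappaB or by interferon, whose factors bind short motifs close to the start of the gene.

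The stretches just upstream of 4 ligand genes are shown as examples. Cxcl9, Cxcl10 and Cxcl2 were each highest on the same array, WT control 3, and Cx3cl1 rose with CCl4 in both genotypes. These traits do not set the 4 genes apart. WT control 3 was the highest WT control for 36 of the 46 tested genes, Cx3cl1 among them. The stretches are the 220 bases before the RefSeq start of transcription (assembly GRCm38.p6), 5′ to 3′ on the strand of the gene. They lie at chr5:92328080-92328299 (minus strand), chr5:92348890-92349109 (minus strand), chr5:90903679-90903898 (plus strand) and chr8:94771960-94772179 (plus strand). Capitals mark a kappaB-like motif (GGG, any 2 bases, TT, any base, CC) and an interferon response motif (GAAA, any 2 bases, GAAA), both searched on both strands.
Cxcl9: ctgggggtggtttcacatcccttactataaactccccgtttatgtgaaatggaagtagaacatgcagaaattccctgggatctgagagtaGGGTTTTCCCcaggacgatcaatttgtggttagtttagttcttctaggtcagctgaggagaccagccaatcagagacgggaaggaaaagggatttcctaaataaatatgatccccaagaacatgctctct
Cxcl10: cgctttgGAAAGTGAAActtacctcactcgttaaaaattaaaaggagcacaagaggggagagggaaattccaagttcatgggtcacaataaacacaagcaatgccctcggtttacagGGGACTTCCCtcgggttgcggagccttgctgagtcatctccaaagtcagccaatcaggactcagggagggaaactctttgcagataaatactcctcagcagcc
Cxcl2: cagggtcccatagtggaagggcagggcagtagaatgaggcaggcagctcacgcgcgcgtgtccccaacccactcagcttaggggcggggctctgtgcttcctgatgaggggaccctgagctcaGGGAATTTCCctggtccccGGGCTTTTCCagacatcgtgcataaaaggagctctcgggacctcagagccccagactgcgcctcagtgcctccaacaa
Cx3cl1: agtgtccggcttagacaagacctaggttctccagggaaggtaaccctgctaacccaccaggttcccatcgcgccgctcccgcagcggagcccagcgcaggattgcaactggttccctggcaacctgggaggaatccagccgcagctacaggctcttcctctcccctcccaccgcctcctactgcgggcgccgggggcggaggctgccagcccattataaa

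Cxcl9 held 1 kappaB-like match that began 130 bases upstream of the start. Cxcl10 held the interferon motif 213 bases and a kappaB-like match 103 bases upstream, and Cxcl2 held a pair of kappaB-like matches at 97 and 78 bases. In Cx3cl1 neither set of letters occurred in this window. Of the 48 RefSeq windows of the 42 chemokine and receptor genes found there, from 250 bases before to 50 bases after the start, 22.9% held the kappaB-like letters, against 4.79% of all 32851 windows. The interferon letters were in 6.25% of the 48 windows and in 3.44% of all windows. The genes with kappaB-like letters were Ccl9, Ccl19, Ccl20, Ccr3, Ccr6, Ccrl2, Cxcl1, Cxcl2, Cxcl3, Cxcl9 and Cxcl10, and those with the interferon letters were Ccl19, Cxcl10 and Cxcl14. Ccl2, Ccl5 and Ccl8, which also lay far above the other WT controls on WT control 3, were not among the genes with kappaB-like letters. Cxcl14, which rose with CCl4 in both genotypes, held the interferon letters. A match to letters is a description and not a bound site, and a link between these letters and the levels was not tested.

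Levels below are log2 of the processed signal after quantile normalization, each for 1 probe per gene, and the level of one gene's probe cannot be set against that of another. Between 51.6% and 60.9% of spots on an array were well above background and 0 gene spots were saturated. Lcn2 itself was between 13.80 and 17.57 on the 9 WT arrays and between 10.46 and 12.25 on the 7 Lcn2-/- arrays, without overlap, and whether its probe lies in the deleted stretch was not analysed here. The hepatocyte markers, 7 genes that include Alb and Apoa1, passed the test in neither response (0 of 7 in each). In each group 1 array was the highest for most of the chemokine genes. WT control 3 was the highest of the 4 WT controls for 36 of the 46 genes (78.3%, against 21.7% of all genes), and Lcn2-/- control 3 was the highest of its 3 for 32 of 46 (69.6%, against 32% of all genes). The counts of genes and pairs are therefore given with and without these controls, together with values for some genes. Among CCl4 arrays WT CCl4 2 was the highest of its 5 for 25 of 46 (54.3%, against 17.9%) and Lcn2-/- CCl4 2 the highest of its 4 for 24 of 46 (52.2%, against 21.3%). Without WT CCl4 2 the WT response had 8 genes past the test, against 9 with all arrays, where the share of all genes was 13.3% against 16.7%. Without Lcn2-/- CCl4 2 the Lcn2-/- response had 7 against 8, at 11.4% of all genes against 12.2%. All 7 control arrays and WT CCl4 1 were on 1 slide, and the other 8 CCl4 arrays on the second. Same-numbered controls of both genotypes shared a column of that first slide, so both control 3 arrays lay in column 3. Within the Lcn2-/- arrays slide and CCl4 cannot be told apart, and within WT only WT CCl4 1 separates them.

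**Figure D1:**
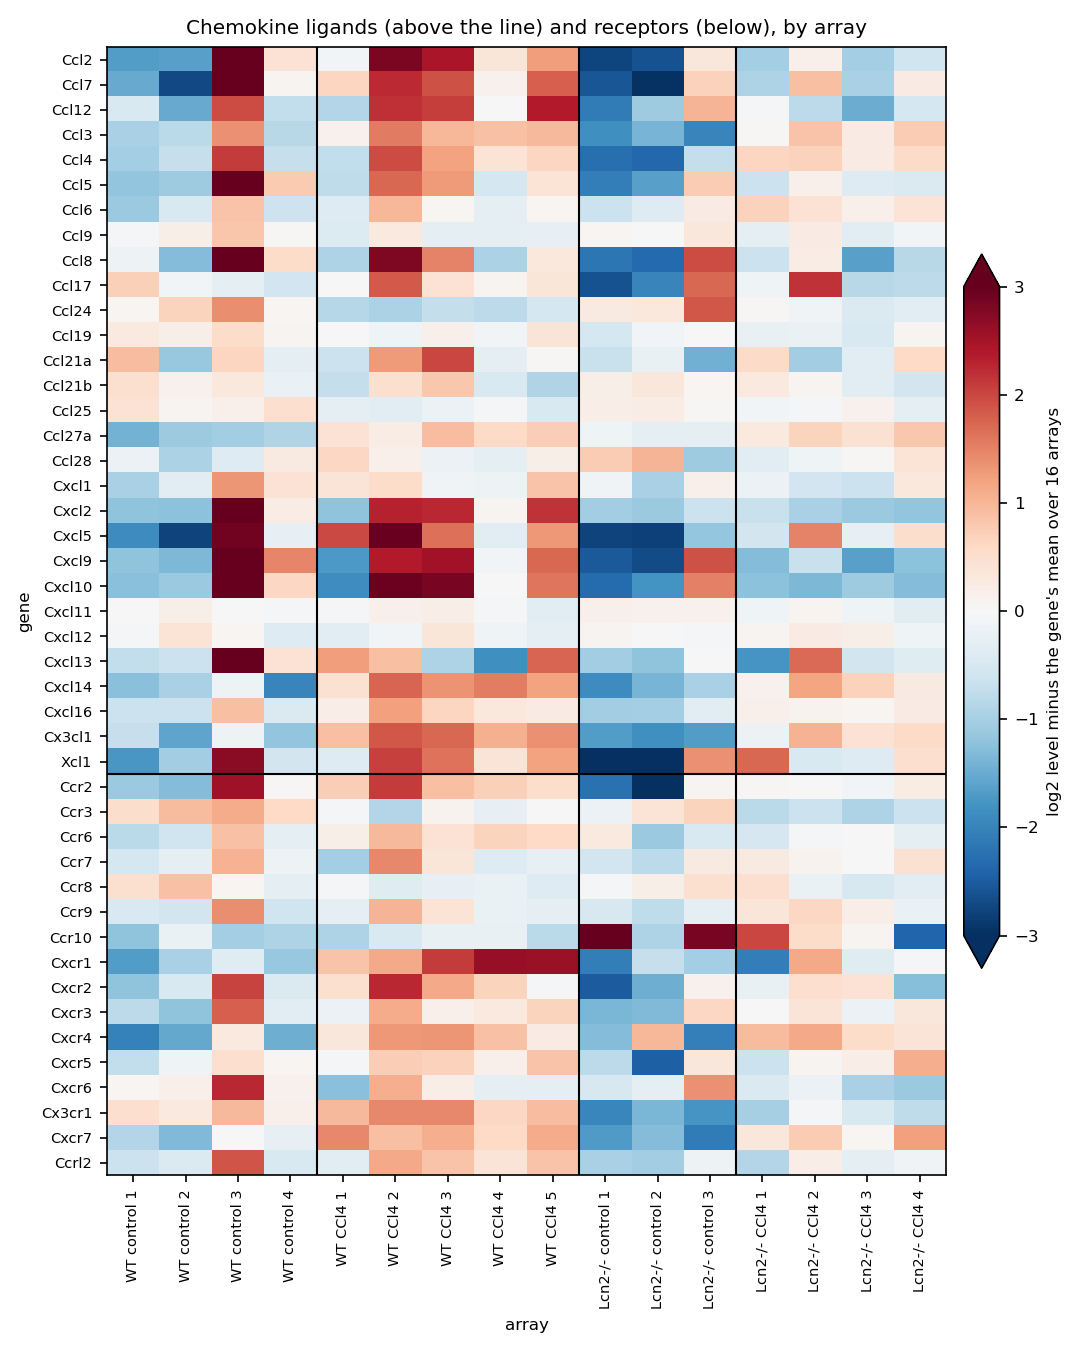
Level of the tested genes on each array, as the log2 level minus the gene's mean over the 16 arrays (red higher, blue lower, colours capped at 3). WT control 3 and WT CCl4 2 are red for most genes, and Cx3cr1 lies below its mean on the 7 Lcn2-/- arrays and above it on the 9 WT arrays.

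CCl4 raised 6 and lowered 3 of the 46 genes in WT livers (limma, adjusted p under 0.05). Across all genes tested, 8.06% were higher and 8.64% lower by the same test. The 6 include Cxcr1, which was well above background on 0 control arrays and so could only be called higher. In Lcn2-/- livers 7 genes were higher and 1 was lower, where 6.58% of all genes were higher and 5.59% lower. The genes that rose in both were Cx3cl1, Cxcl14, Ccl27a and Cxcr7, and Ccr3 fell in both. Cxcr1 and Cxcr4 rose and Ccl24 and Ccl25 fell past the threshold in WT, and Ccl3, Ccl4 and Cx3cr1 rose past it in Lcn2-/-. The median change of the 46 genes was 0.54 in WT and 0.68 in Lcn2-/-, beside medians of -0.03 and -0.023 over all genes. Without control 3 of each genotype the medians were 1.00 and 0.91, beside -0.049 and -0.035. In the liver as a whole, fewer cells of a type and less RNA per cell cannot be told apart.

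**Figure D2:**
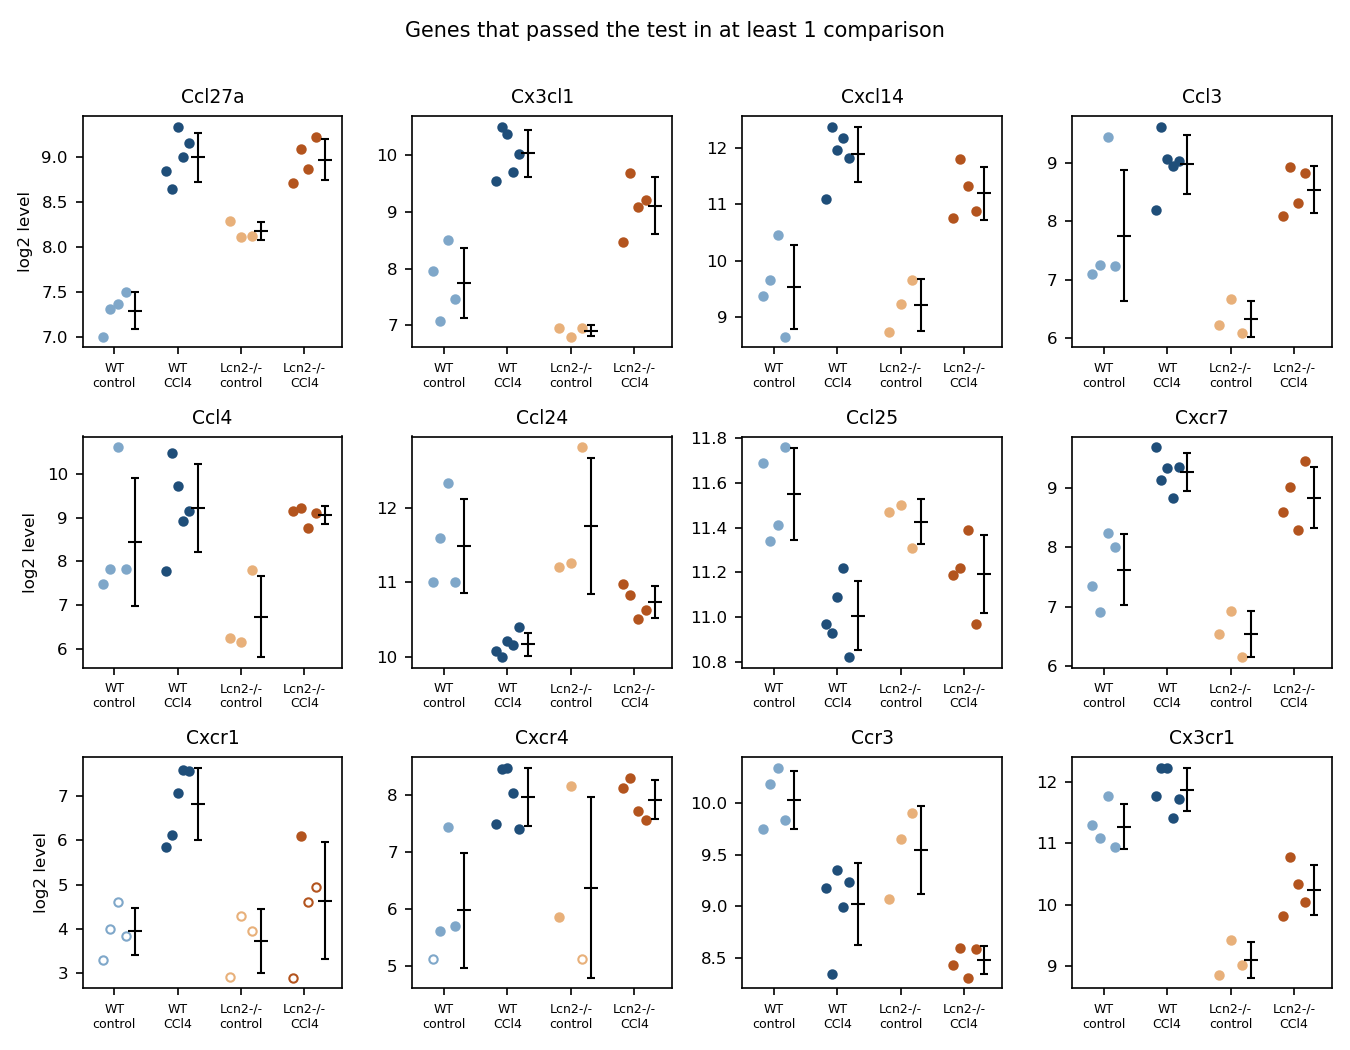
Log2 level on each array of the 12 genes that passed the test in at least 1 comparison, with the mean and SD of each group beside the points (4, 5, 3 and 4 arrays). Open points were not well above background. Cx3cl1, Cxcl14 and Cxcr7 have higher means in both CCl4 groups than in either control group, and Cx3cr1 lies lower in both Lcn2-/- groups than in either WT group.

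Cx3cl1 encodes fractalkine, a chemokine held on the membrane of endothelial and epithelial cells by a mucin stalk. In WT controls its level was 7.95, 7.07, 8.5 and 7.47, and under CCl4 it was 9.55, 10.50, 10.37, 9.70 and 10.01. In Lcn2-/- controls it was 6.96, 6.80 and 6.96, and under CCl4 it was 8.46, 9.69, 9.08 and 9.21. Every CCl4 array lay above every control array of its genotype. The change was 2.28 ± 0.295 (log2, SE) in WT (4.85-fold, adjusted p = 0.00013) and 2.20 ± 0.336 in Lcn2-/- (4.60-fold, adjusted p = 0.000774).

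Cx3cr1, on chromosome 9, is the receptor of fractalkine and marks monocytes, many tissue macrophages and NK cells. It read 11.30, 11.09, 11.77 and 10.94 in WT controls and 11.78, 12.23, 12.24, 11.42 and 11.72 in WT CCl4. In Lcn2-/- livers it read 8.85, 9.42 and 9.02 in controls and 9.81, 10.77, 10.34 and 10.04 under CCl4. The 7 Lcn2-/- arrays all lay below the 9 WT arrays, with no overlap, and the CCl4 arrays lay above the controls only in Lcn2-/-. The rise was 1.14 ± 0.266 in Lcn2-/- (2.21-fold, adjusted p = 0.0116), while in WT the difference was 0.60 ± 0.234 (adjusted p = 0.0952). The responses were not shown to differ: their difference was 0.54 ± 0.354 with an unadjusted p of 0.147 and an adjusted p of 1 in limma. A second Cx3cr1 probe rose by 1.72 in Lcn2-/- (adjusted p = 0.000409 in a limma fit over all probes) and by 0.70 in WT (adjusted p = 0.0348), so the WT call differed between the probes. The Lcn2-/- call was lost without Lcn2-/- control 1 (adjusted p = 0.0631).

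Cxcl14 is a chemokine of epithelia and stroma whose receptor is debated. Its levels were 9.38, 9.66, 10.46 and 8.65 in WT controls and 11.09, 12.38, 11.96, 12.17 and 11.82 under CCl4. In Lcn2-/- controls they were 8.73, 9.24 and 9.66, against 10.76, 11.80, 11.32 and 10.89 under CCl4. Controls and CCl4 arrays did not overlap in either genotype. The change was 2.35 ± 0.352 in WT (5.09-fold, adjusted p = 0.00039) and 1.98 ± 0.401 in Lcn2-/- (3.95-fold, adjusted p = 0.005).

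CXCR7, named Ackr3 by RefSeq, is an atypical receptor that takes up CXCL12 and CXCL11 without signalling through G proteins. Cxcr7 stood at 7.35, 6.92, 8.24 and 8.0 in WT controls and at 9.69, 9.14, 9.33, 8.83 and 9.35 in WT CCl4. Lcn2-/- controls gave 6.54, 6.93 and 6.15, and Lcn2-/- CCl4 livers 8.59, 9.01, 8.29 and 9.46. No CCl4 array reached down to the controls of its genotype. The rise was 1.64 ± 0.292 in WT (3.11-fold, adjusted p = 0.00147) and 2.30 ± 0.333 in Lcn2-/- (4.91-fold, adjusted p = 0.000526), and it was past the threshold in both genotypes under all 27 alternative settings.

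CXCR4 is the signalling receptor of CXCL12, carried by most leukocytes and by activated stellate cells. Cxcr4 read 5.13, 5.62, 7.45 and 5.71 in WT controls and 7.50, 8.46, 8.48, 8.04 and 7.40 under CCl4. The groups touched at WT control 3, whose value lay above the lowest CCl4 array. The change was 2.00 ± 0.553 (3.99-fold, adjusted p = 0.0234). It missed the threshold without WT control 1, 2 or 4 or WT CCl4 2 (adjusted p from 0.0546 to 0.0894). In Lcn2-/- the difference was 1.54 ± 0.63 (adjusted p = 0.129), with Lcn2-/- control 2 at 8.16 among the CCl4 values of 7.56 to 8.30. Without control 3 of both genotypes the differences were 2.49 (adjusted p = 0.00137) and 0.91 (adjusted p = 0.273). The probe used for the ligand Cxcl12 gave differences of -0.10 ± 0.166 in WT and 0.08 ± 0.189 in Lcn2-/-. A second Cxcl12 probe rose by 0.46 in WT (adjusted p = 0.034 in the fit over all probes), so the probes differed there.

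CXCR1 and CXCR2 are the receptors through which neutrophils follow CXCL1, CXCL2, CXCL3 and CXCL5. Cxcr1 was not well above background on any control array, at 3.30, 4.00, 4.61 and 3.84 in WT. It was so on all 5 WT CCl4 arrays, at 5.84, 6.11, 7.07, 7.58 and 7.56, none of which overlapped the controls. The rise was at least 3.84-fold, where each control array was set to the dimmest probe that still stood well above background on it, or to Cxcr1 itself if brighter (measured means 6.83 and 3.94, adjusted p = 0.00276). Cxcr1 entered the test only through the CCl4 arrays, since it was above background on 0 controls, so a gene like it could only be called higher. Of the 4 Lcn2-/- CCl4 arrays 1 was above background, at 6.10, beside 2.89, 4.60 and 4.94, and the difference there was 0.92 ± 0.641 (adjusted p = 0.381). Cxcr2 gave differences of 0.91 ± 0.683 in WT and 1.14 ± 0.777 in Lcn2-/-, neither past the threshold. It stood well above background on 1 of 4 WT controls and 0 of 3 Lcn2-/- controls, so these differences are not measured folds.

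Neutrophil markers were counted in the same livers. Of 11 markers, all tested, 7 passed as higher in WT under CCl4, where 8.06% of all genes did. Among them were Mmp8 (3.24), Retnlg (2.61), Ltf (4.33) and Ngp (4.09) on the log2 scale. In Lcn2-/- 2 passed as higher, Retnlg (2.84) and Mmp8 (2.68), where 6.58% of all genes did. In each genotype 8 of the 11 had a change above 0 and 3 a change below 0, none of these passing as lower. The log2 of their summed level spanned 16.70 to 17.19 in WT controls, 16.47 to 17.56 in WT CCl4, 16.82 to 17.38 in Lcn2-/- controls and 16.44 to 16.96 in Lcn2-/- CCl4. Their part in the change of Cxcr1 was not tested.

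The CXCR2 ligands did not pass the test in either response (0 of 3 tested). Cxcl5, made by epithelium, gave differences of 2.01 ± 0.958 in WT (adjusted p = 0.172) and 2.54 ± 1.09 in Lcn2-/- (adjusted p = 0.15), and it was not well above background on any Lcn2-/- control. Cxcl1 gave 0.20 ± 0.401 and 0.04 ± 0.457. Cxcl2 was above background only on WT control 3 (7.54) and on WT CCl4 2, 3 and 5 (6.47, 6.42 and 6.33), and on none of the 7 Lcn2-/- arrays, which lay between 2.98 and 3.51.

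CCL27 is an epithelial chemokine for CCR10, best known for bringing T cells to skin. Ccl27a read 7.0, 7.31, 7.36 and 7.50 in WT controls and 8.85, 8.64, 9.34, 9.0 and 9.16 under CCl4. It read 8.29, 8.11 and 8.12 in Lcn2-/- controls and 8.71, 9.09, 8.87 and 9.22 under CCl4. These 4 groups fell into 3 tiers without overlap between tiers, with WT controls lowest, Lcn2-/- controls between and both CCl4 groups above. The rise was 1.71 ± 0.153 in WT (3.26-fold, adjusted p = 8.13e-06) and 0.80 ± 0.174 in Lcn2-/- (1.74-fold, adjusted p = 0.00818). A probe that overlaps it rose by 1.64 and 0.91, but another probe of the same gene name, starting at position 41720062 of chromosome 4 (mm9), gave differences of -0.17 and -0.31 that missed the threshold. The region holds near-identical copies of Ccl27, so which copy the signal comes from is uncertain. Ccl28, the other CCR10 ligand, gave differences of 0.41 and -0.24, and the signal of Ccr10 itself did not clear background on the WT controls.

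CCR3 is the receptor of eosinophils, and CCL24 is one of its ligands, made by macrophages. Ccr3 read 9.75, 10.18, 10.34 and 9.83 in WT controls and 9.18, 8.35, 9.35, 8.99 and 9.23 under CCl4. Lcn2-/- controls gave 9.07, 9.65 and 9.90 and Lcn2-/- CCl4 livers 8.43, 8.60, 8.31 and 8.59. All CCl4 arrays lay under the controls of their genotype. Ccr3 fell by 1.01 on the log2 scale in WT (SE 0.213, 2.01-fold, adjusted p = 0.00482) and by 1.06 in Lcn2-/- (SE 0.242, 2.08-fold, adjusted p = 0.0106). The Lcn2-/- call was at adjusted p = 0.0503 without Lcn2-/- control 2.

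Ccl24 read 11.01, 11.60, 12.33 and 11.01 in WT controls and 10.09, 10.00, 10.22, 10.16 and 10.41 in WT CCl4, so it fell by 1.31 (SE 0.318, 2.49-fold, adjusted p = 0.0114). In Lcn2-/- it read 11.21, 11.26 and 12.81 in controls and 10.98, 10.83, 10.51 and 10.63 under CCl4. The groups did not overlap there either, and the difference of -1.02 ± 0.362 missed the threshold at adjusted p = 0.0819. Without the control 3 arrays of both genotypes, of which Lcn2-/- control 3 was the highest here, it was -0.50 (adjusted p = 0.105), and the WT difference was -1.03 (adjusted p = 0.000591). Ccl25, whose receptor CCR9 brings lymphocytes to gut and thymus, read 11.69, 11.34, 11.41 and 11.76 in WT controls and 10.97, 10.93, 11.09, 11.22 and 10.82 under CCl4. It fell by 0.54 in WT (SE 0.121, 1.46-fold, adjusted p = 0.00698) and its difference was -0.23 ± 0.138 in Lcn2-/- (adjusted p = 0.3), where that of Ccr9 was 0.74 ± 0.441 (adjusted p = 0.301).

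The Kupffer cell markers Clec4f (-1.03) and Timd4 (-1.29) fell past the threshold in the same WT livers, 2 of 8 markers, where 8.64% of all genes fell. In Lcn2-/- 0 of 8 passed, where 5.59% of all genes fell. In each genotype 5 of the 8 had a change below 0 and 3 a change above 0. The log2 of the summed level of the 8 spanned 16.29 to 18.01 in WT controls, 16.40 to 16.83 in WT CCl4, 16.51 to 18.16 in Lcn2-/- controls and 16.68 to 16.92 in Lcn2-/- CCl4. Their part in the fall of Ccl24 was not tested.

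CCL3 and CCL4 are inflammatory CC chemokines, CCL3 a ligand of CCR1, made by activated macrophages and lymphocytes. Ccl3 read 6.23, 6.67 and 6.09 in Lcn2-/- controls and 8.09, 8.93, 8.31 and 8.82 under CCl4, without overlap. It rose by 2.21 ± 0.481 (4.63-fold, adjusted p = 0.00802). In WT it read 7.10, 7.26, 9.44 and 7.23 in controls and 8.20, 9.62, 9.07, 8.95 and 9.03 under CCl4, where WT control 3 alone of the controls reached the CCl4 range. The WT difference was 1.22 ± 0.423 (adjusted p = 0.063), just outside the threshold, and without WT control 3 it was 1.78 (adjusted p = 0.000469).

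Ccl4 read 6.25, 6.16 and 7.80 in Lcn2-/- controls and 9.15, 9.21, 8.76 and 9.10 under CCl4. In WT it read 7.49, 7.83, 10.61 and 7.82 in controls and 7.78, 10.48, 9.72, 8.93 and 9.15 under CCl4, with overlap at WT control 3 and WT CCl4 1. It rose by 2.32 ± 0.713 in Lcn2-/- (4.99-fold, adjusted p = 0.0476), a call lost under 16 of 27 alternatives, with adjusted p up to 0.172 when 1 array was left out (Lcn2-/- control 2), and the WT difference was 0.77 ± 0.626 (adjusted p = 0.438). Among 3 other ligands of CCR1, Ccl5, Ccl6 and Ccl9, none passed the test. Their differences lay between -0.42 and 0.43 in WT and between -0.25 and 0.69 in Lcn2-/-. Without control 3 of both genotypes Ccl6 passed in WT (0.83, adjusted p = 0.048) but not in Lcn2-/- (0.95, adjusted p = 0.0719).

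**Figure D3:**
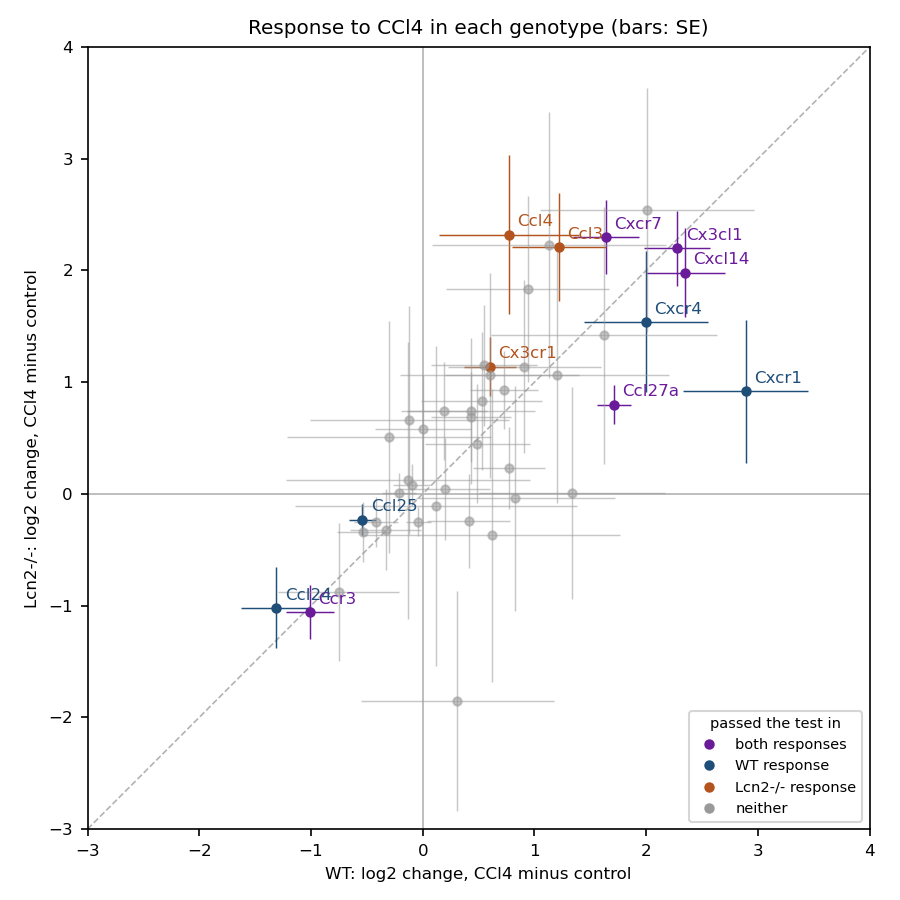
Change under CCl4 in WT (x) and in Lcn2-/- (y) of the tested genes, as log2 differences with SE, coloured by the response in which each passed the test. The dashed line marks equal change. Cx3cl1, Cxcl14 and Cxcr7 sit near 2 on both axes and Ccl4 lies above the line at 0.77 and 2.32. Cxcr1, right of the line, was not well above background on any control array, so its place is not a measured fold.

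The responses were then compared directly. For the interaction (how far the response in Lcn2-/- exceeded that in WT), 0 of the 46 genes passed the limma test, beside 0.0535% of all genes, and 0 passed under each of the 27 alternatives. At an unadjusted p under 0.05 there were 2 of 46 (4.35%, against 3.31% of all genes). These were Ccl27a, at -0.91 ± 0.232 (limma, unadjusted p = 0.0015, adjusted p = 0.816), and Cxcr1, at -1.97 ± 0.853 (limma, unadjusted p = 0.0365, adjusted p = 1), whose controls were below background. The next was Ccl25 at 0.31 ± 0.184 (limma, unadjusted p = 0.113, adjusted p = 1). Of the 46 genes, 28 had a change above 0 in both genotypes, 8 a change below 0 in both and 10 opposite signs.

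Several ligands that respond to tissue injury and interferon spread widely among the controls. CXCL9, CXCL10 and CXCL11 are the interferon-induced ligands of CXCR3. Cxcl9 read 11.03, 10.88, 16.67 and 13.69 in WT controls and 10.50, 14.62, 14.74, 12.15 and 13.95 under CCl4. In Lcn2-/- it read 9.70, 9.55 and 14.13 in controls and 10.92, 11.56, 10.60 and 11.01 under CCl4. The highest value in each genotype was thus on a control, control 3, and the differences were 0.12 ± 1.26 and -0.11 ± 1.43. Cxcl10 followed it, at 15.55 on WT control 3 against 10.58, 10.72 and 12.44 on the others and at 13.34 on Lcn2-/- control 3 against 9.52 and 10.03. Cxcl10 gave differences of 0.62 ± 1.15 and -0.37 ± 1.31. For both genes the SE was larger than the difference with all arrays. Without control 3 of each genotype Cxcl9 gave 1.33 (adjusted p = 0.339) and 1.40 (adjusted p = 0.432) and Cxcl10 1.70 (adjusted p = 0.218) and 0.82 (adjusted p = 0.669).

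Neither Cxcl11 probe was matched to a RefSeq symbol, so the values are given under the array's own gene name. The probe used for Cxcl11 stayed between 17.73 and 18.25 on all 16 arrays. A second Cxcl11 probe lay between 11.96 and 13.07 and fell by 0.70 in Lcn2-/- (adjusted p = 0.0284 in the fit over all probes), where the first gave -0.25 ± 0.129 (adjusted p = 0.225). On both probes control 3 lay within the range of the other controls of its genotype.

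CCR2 is the receptor that brings inflammatory monocytes out of bone marrow, and CCL2, CCL7 and CCL12 are its mouse ligands. Ccl2 read 8.75, 8.78, 13.97 and 10.84 in WT controls and 10.33, 13.25, 12.87, 10.79 and 11.67 under CCl4. In Lcn2-/- it read 7.67, 7.80 and 10.75 in controls and 9.40, 10.58, 9.39 and 9.83 under CCl4. Ccr2 read 7.56, 7.36, 11.21 and 8.71 in WT controls and 9.40, 10.75, 9.57, 9.37 and 9.20 under CCl4, and in Lcn2-/- it read 6.43, 5.47 and 8.75 in controls and 8.69, 8.67, 8.59 and 8.89 under CCl4. Both genes overlapped between control and CCl4 in each genotype, with control 3 the highest control. The differences of Ccl2 were 1.20 ± 1.00 and 1.06 ± 1.14 and those of Ccr2 0.94 ± 0.731 and 1.83 ± 0.832, none past the threshold.

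**Figure D4:**
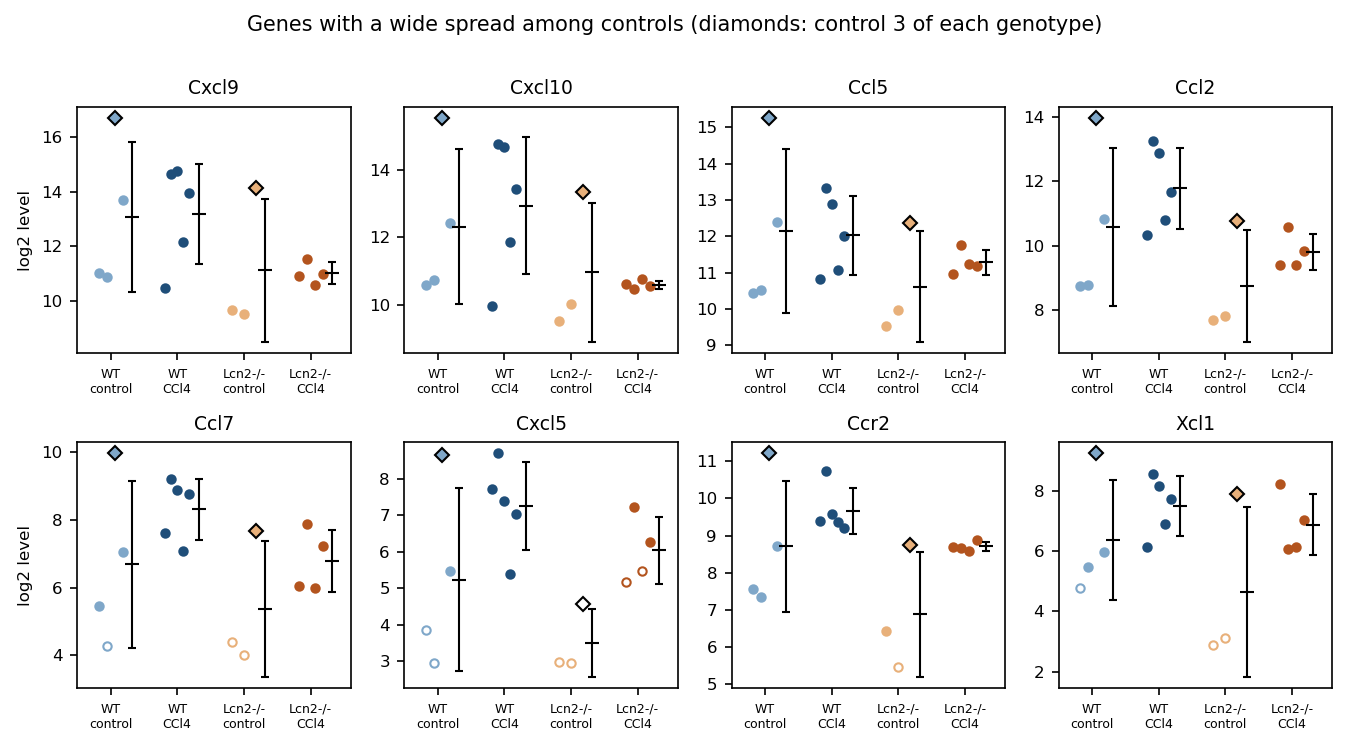
Log2 level on each array of 8 genes whose controls spread widely, with the mean and SD of each group and open points for arrays not well above background. Diamonds mark control 3 of each genotype, which is the highest control of its genotype in all 8 panels and reaches 16.67 for Cxcl9 in WT.

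Control 3 of each genotype exceeded the mean of the other controls for several genes. In log2 units the differences were 4.80 and 4.50 for Cxcl9, 4.51 and 3.02 for Ccl2 and 4.31 and 3.57 for Cxcl10. For Ccl8 the WT difference was 3.90. In Lcn2-/- control 3 (8.87) alone of the controls stood well above background for Ccl8, so no difference is given. For Ccl27a, Cxcl12 and Cxcl11 the same differences were between -0.11 and 0.09. For Ccl3 the arrays parted, with 2.25 in WT and -0.36 in Lcn2-/-. Cxcr4 gave 1.96 and -1.89, but WT control 1 and Lcn2-/- control 3 were not well above background for it, so neither is a measured fold. Cxcl2 stood well above background on WT control 3 alone of the controls, and Ccl17 on Lcn2-/- control 3 alone of the Lcn2-/- controls. Whether the arrays parted for these genes cannot be read from differences against background. The median SD of the 46 genes among WT controls was 0.886, against 0.254 over all genes, and among Lcn2-/- CCl4 arrays it was 0.391 against 0.285. These controls had been picked out, in earlier results of the same data, because they lay nearest the CCl4 arrays, so what is gained without them is not independent support. Without them 24 of 46 genes passed in WT (21 higher, 3 lower), where 22.3% of all genes passed in either direction, and 16 passed in Lcn2-/- (15 higher, 1 lower), against 15.1% of all genes. All 9 and all 8 genes called with the full set were among them.

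Among the genes that passed in both genotypes without the control 3 arrays, beyond those named above as changed in both, were Ccl3, Ccl4, Ccl7, Cx3cr1, Cxcl5, Cxcl16, Xcl1, Ccr2 and Cxcr3. Cxcl16, the ligand of CXCR6, gave 1.10 and 1.17 where the full set gave 0.73 ± 0.304 and 0.93 ± 0.346. Ccl2 gave 2.33 (adjusted p = 0.0255) and 2.07 (adjusted p = 0.106), and Ccr2 1.78 and 2.76, with 1 of the 2 remaining Lcn2-/- controls not well above background for Ccr2. Xcl1, a product of NK and CD8 T cells, gave 2.09 in WT. For Xcl1, Ccl7 and Cxcl5 neither of the remaining Lcn2-/- controls stood well above background, so no Lcn2-/- fold is given for them. In WT 1 of the 3 remaining controls was below background for Xcl1 and for Ccl7, and 2 were for Cxcl5. Ccl5 did not pass in either genotype without these arrays (0.91, adjusted p = 0.301, and 1.53, adjusted p = 0.164), and neither did Cxcl9 or Cxcl10. Ccl8 also missed the threshold (0.85, adjusted p = 0.49, in WT and adjusted p = 0.312 in Lcn2-/-). Neither remaining Lcn2-/- control stood well above background for Ccl8, so no Lcn2-/- fold is given for it.

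**Figure D5:**
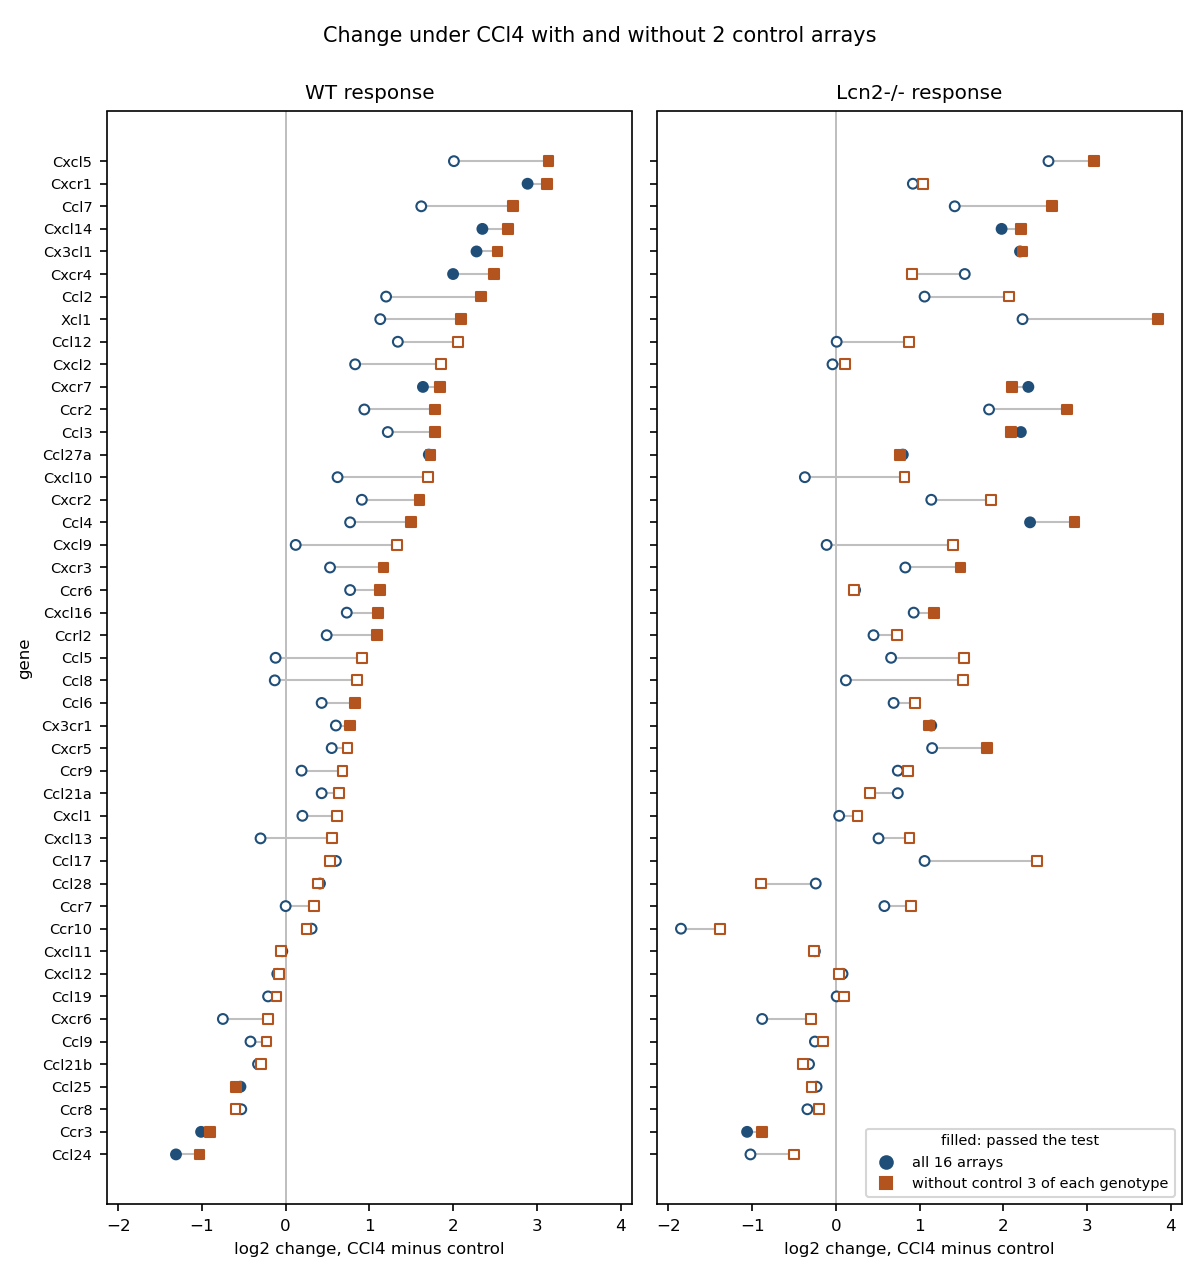
Change under CCl4 of the tested genes (log2, CCl4 minus control) with all 16 arrays (circles) and without control 3 of each genotype (squares), filled where the gene passed the test. Filled squares outnumber filled circles in both genotypes, while Ccl27a goes from 1.71 to 1.73 in WT and from 0.80 to 0.77 in Lcn2-/-.

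Slide was the other limit on the CCl4 comparisons. With slide as a fixed term, 3 of the 9 WT calls were past the threshold, Ccl27a (1.55), Cx3cl1 (1.81) and Cxcr7 (2.06), and 1 of the 8 Lcn2-/- calls, Cxcr7 (2.82). The share of all genes called, in either direction, was then 5.33% in WT, against 16.7% without slide, and 1.75% in Lcn2-/-, against 12.2%. That fit rests on WT CCl4 1, the 1 CCl4 array on the slide of the controls. Within that slide the differences of WT CCl4 1 from the WT control mean ran from 1.52 for Cxcr4 to 2.06 for Cxcr7 among the genes called higher, and were -0.57 for Ccl25, -0.85 for Ccr3 and -1.40 for Ccl24. These rest on the same array as the fit with slide, and the genes were called with that array included.

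Ligands and receptors were also read as pairs. Of 38 known pairs with both genes on the array, 26 had both tested. In WT 0 pairs had ligand and receptor both higher. In Lcn2-/- 1 pair did, Cx3cl1 with Cx3cr1. In WT this pair missed through Cx3cr1 (limma, adjusted p = 0.0952), whose second probe passed there (adjusted p = 0.0348 in the fit over all probes). Under the replicate block and with the mean over probes the pair was both higher in WT too. The Cx3cr1 responses of the genotypes were not shown to differ. For 3 pairs in each genotype the ligand alone passed and for 3 the receptor alone, while 19 had neither. Ccl24 and Ccr3 both fell in WT. In WT Cxcl12 did not pass while its receptors Cxcr4 and Cxcr7 did, and Ccl27a passed while Ccr10 did not. Without the control 3 arrays 6 pairs were both higher in WT, among them the CCR2 pairs with Ccl2 and Ccl7, Cxcl5 with Cxcr2 and Cx3cl1 with Cx3cr1, and 4 were in Lcn2-/-. Of the 3 remaining WT controls 3 were not well above background for Cxcr2.

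The genotypes were compared within each treatment. Under CCl4 1 of 46 genes passed, Cx3cr1, where 0.65% of all genes passed. It was lower in Lcn2-/- (10.24 ± 0.416, SD, n = 4) than in WT (11.88 ± 0.355, n = 5), a difference of -1.64 ± 0.234 (3.11-fold, adjusted p = 0.00337). In controls 2 of 46 passed, where 0.518% of all genes passed. Cx3cr1 was again lower in Lcn2-/-, by -2.18 ± 0.266 (4.53-fold, adjusted p = 0.000661), and Ccl27a was higher by 0.88 ± 0.174 (1.84-fold, adjusted p = 0.0352). The other Ccl27a probes did not pass there, at 0.70 for the overlapping one (adjusted p = 0.114 in the fit over all probes) and 0.25 for the one further off (adjusted p = 0.901). The second Cx3cr1 probe gave differences of -1.25 (adjusted p = 0.0129) and -2.27 (adjusted p = 0.000149).

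Cx3cr1 was past the threshold in both genotype comparisons under all 27 alternatives, between -1.81 and -1.44 under CCl4 and between -2.34 and -1.98 in controls. Without the control 3 arrays it was the 1 gene that passed in controls, where 0.621% of all genes did. The WT controls lay in the upper tier of the slide and the Lcn2-/- controls in the lower one. WT CCl4 1 shared the lower tier with them and read 11.78, within the range of the other WT arrays. On the second slide tier and genotype cannot be told apart. The Ccl27a difference was lost under 12 of 27 alternatives. Among them were leaving out WT control 1, 2 or 3, any 1 Lcn2-/- control, WT CCl4 4 or Lcn2-/- CCl4 3 (adjusted p from 0.054 to 0.167). In a paired fit with the replicate number as a block, which the controls share, the Ccl27a difference was 0.94 with adjusted p = 0.0606. Same-numbered controls also shared a slide column. Without Lcn2-/- control 2 the count of genes past the threshold in controls was still 2, so another gene passed there.

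The macrophage and monocyte markers, which overlap in source with Cx3cr1, did not pass in either genotype comparison (0 of 10), although 9 of 10 were lower in Lcn2-/- in each, with medians of -0.64 under CCl4 and -0.26 in controls. The log2 of their summed level spanned 15.87 to 17.42 in WT controls, 15.72 to 16.94 in Lcn2-/- controls, 16.75 to 17.40 in WT CCl4 and 16.52 to 16.71 in Lcn2-/- CCl4. Of the T and NK cell markers 0 of 12 passed in each, and 8 were lower under CCl4 (median -0.38) and 10 in controls (median -0.73). Of the 8 Kupffer cell markers 0 passed in each, with 4 lower and 4 higher in Lcn2-/- under CCl4 (median -0.06) and 8 higher in controls (median 0.10). The part of these cells in the Cx3cr1 difference was not tested.

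No other of the 46 genes passed between genotypes. Under CCl4 Cxcr1 gave -2.20 ± 0.563 (adjusted p = 0.109), with 1 of 4 Lcn2-/- arrays above background. Leaving that array out, Lcn2-/- CCl4 2, gave adjusted p = 0.0382, but it leaves no Lcn2-/- CCl4 array above background. Of the 11 neutrophil markers 0 passed between genotypes under CCl4, with 9 lower and 2 higher in Lcn2-/- (median -0.83). Their part in this Cxcr1 difference was not tested. The difference of Cx3cl1 was -0.92 ± 0.295 (adjusted p = 0.201). In controls that of Cxcr7 was -1.09 ± 0.333 (adjusted p = 0.24). Of the 46 genes, 36 were lower in Lcn2-/- under CCl4 (78.3%, against 50.9% of all genes) and 37 in controls (80.4%, against 52.7% of all genes). The medians were -0.49 and -0.57 beside -0.006 and -0.014 over all genes. At an unadjusted limma p under 0.05 there were 7 of 46 under CCl4 (15.2%, against 13.6% of all genes). In controls there were 9 of 46 (19.6%, against 8.3% of all genes). The 46 genes are not independent of each other, since many moved together from array to array. Under CCl4 ligands with wide spread gave Cxcl10 -2.35 ± 1.15 (adjusted p = 0.388), Cxcl9 -2.17 ± 1.26 (adjusted p = 0.47) and Ccl2 -1.98 ± 1.00 (adjusted p = 0.408).

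The ligands and receptors that order lymphoid tissue did not pass the test. Ccl19, Ccl21a and Ccl21b, which guide T cells and dendritic cells through CCR7, gave differences of -0.21, 0.43 and -0.33 in WT and 0.01, 0.74 and -0.32 in Lcn2-/-. Other Ccl19 probes went the other way in WT, at 1.08 and 0.33, and gave 0.36 and -0.08 in Lcn2-/-. None of these passed (lowest adjusted p = 0.179 in the fit over all probes). Mouse Ccl19 and Ccl21 exist as near-identical copies, so each probe may read more than 1 gene. Ccr7 gave 0.00 and 0.58, Cxcl13, which draws B cells into follicles, -0.30 and 0.51, and its receptor Cxcr5 0.55 and 1.15. Of the lymphocyte receptors, Ccr6 gave 0.77 and 0.23, Cxcr3 0.53 and 0.83, Cxcr6 -0.75 and -0.88 and Ccr8 -0.53 and -0.34. Ccl17 gave 0.60 and 1.06, Ccl12 1.34 and 0.01, and the atypical receptor Ccrl2 0.49 and 0.45. None of these passed the test in any of the 5 comparisons with all arrays. Without the control 3 arrays Ccr6 (1.13, adjusted p = 0.0113), Cxcr3 (1.17, adjusted p = 0.0086) and Ccrl2 (1.09, adjusted p = 0.021) passed in WT, and Cxcr3 (1.49, adjusted p = 0.00869) and Cxcr5 (adjusted p = 0.0276) in Lcn2-/-, the remaining controls not being well above background for Cxcr5. Ccl17 (adjusted p = 0.0515 in Lcn2-/-, where the remaining controls were again below background) and Ccl12 (2.06, adjusted p = 0.0522 in WT) missed the threshold.

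Ccr10 was above background on some Lcn2-/- arrays, at 9.15 and 8.18 on Lcn2-/- controls 1 and 3 and at 7.33 and 5.87 on Lcn2-/- CCl4 1 and 2, and on WT CCl4 2, 3 and 4 at 4.86, 5.11 and 5.10. Its Lcn2-/- difference of -1.85 ± 0.985 missed the threshold (adjusted p = 0.246). Between genotypes in controls Ccr10 was higher in Lcn2-/- and also missed it (adjusted p = 0.37). It stood above background there on 2 of 3 Lcn2-/- controls and 0 of 4 WT controls, so no fold is given. The 11 genes not tested were Ccl1, Ccl11, Ccl20, Ccl22, Ccl26, Ccr1, Ccr4, Cxcl3, Cxcl15, Cxcl17 and Xcr1, which were well above background on 0 to 2 arrays. Among them are Ccr1, Ccr4 and Xcr1, receptors of Ccl3, Ccl17 and Xcl1, so the pairs with these receptors could not be read.

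Genes around the chemokines were counted from lists. Of 12 tested genes of the chemokine system outside the name rule, such as the decoy receptors, 0 passed in either response, with medians of -0.05 in WT and -0.07 in Lcn2-/-. Of 28 genes that carry the signal inside the cell, 3 rose and 2 fell in WT, shares close to the 8.06% and 8.64% of all genes, with Rgs1 (3.09), Pik3r5 (1.96) and Arrb1 (0.54) higher and Ptk2b (-0.66) and Lyn (-0.42) lower. Rgs1, a brake on G protein signalling in lymphocytes and macrophages, rose by 2.63 in Lcn2-/- and Pik3r5, a regulator of PI3K gamma, by 2.45. Of 20 cytokines and factors that induce chemokines, 0 passed in either response.

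Cell marker counts are to be read beside the shares of all genes called, 8.06% higher and 8.64% lower in WT and 6.58% and 5.59% in Lcn2-/-. Of the stellate and fibroblast genes 8 of 9 rose in WT and 7 of 9 in Lcn2-/-, with Lum (2.78 and 2.53), Pdgfra (1.61 and 1.69), Pdgfrb (1.71 and 1.92) and Col3a1 (2.64 and 3.20) among them, and Ngfr fell in WT. Macrophage and monocyte markers rose in 3 of 10 in each genotype (Lyz2, Cd68 and Lyz1) and Cd163 fell in each. Dendritic cell markers rose in 2 of 9 in WT and 3 of 9 in Lcn2-/-, where 1 also fell. For B cells 1 of 5 fell in WT and 0 passed in Lcn2-/-, and for T and NK cells 2 of 12 and 1 of 12 fell. Endothelial markers had 1 of 8 higher in each and 1 lower in WT, and cholangiocyte markers had 1 of 5 higher in each, Spp1.

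By position, the 14 genes on chromosome 11, which carries the main CC cluster, held 0 of the 9 WT calls and 2 of the 8 Lcn2-/- calls (Ccl3 and Ccl4) among 12 tested. The 11 genes on chromosome 5, home of the CXC cluster, held 1 WT call, Ccl24, and 0 Lcn2-/- calls among 8 tested. Of all genes 16.7% were called in WT and 12.2% in Lcn2-/-, and nothing is read from these small counts. Ccl24 lies apart from the CXC genes there, its probe at chr5:136046667-136046726. The other called ligands are on other chromosomes, Cx3cl1 and Ccl25 on chromosome 8, Cxcl14 on 13 and Ccl27a on 4, and the called receptors on chromosomes 1 (Cxcr1, Cxcr4 and Cxcr7) and 9 (Ccr3 and Cx3cr1). In mm9 the probe of Cx3cl1 spans chr8:97306185-97306244, that of Cx3cr1 chr9:119957811-119957870, that of Cxcl14 chr13:56390078-56390137, that of Cxcr7 chr1:92111803-92111862 and that of Ccl27a chr4:41716345-41716404. The place of the probes within their transcripts was not analysed here.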

How the data were processed

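Mouse liver RNA, 16 samples, was labelled with Cy3 and hybridised to 1-colour Agilent mouse arrays. The authors deposited 1 scanner file per array with spot intensity values from Feature Extraction 10.7.3.1, where the processed signal is background subtracted and detrended on a linear scale, and a table of log2 values that the authors quantile normalized. The spots, 3671 controls and those marked as outliers left out of 62976, were taken as log2 processed signal and quantile normalized, as the methods name. Spots of a probe were averaged, 121 probes whose spots were all marked on an array were left out, and a probe had to stand well above background on 3 arrays or more (33014 did), and the probe with the highest mean stood for each gene name. The file's names were used, with RefSeq (GRCm38.p6) for sequences and newer symbols.

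Groups were taken from the sample titles. One model of the 4 group means was fitted with limma 3.58.1 in R 4.3.3 (lmFit, eBayes), with Benjamini-Hochberg adjustment over all 24319 genes and a threshold of 0.05. The fit was tested on simulated data. Noise there was independent for each gene, with no slide effect and no shift of a whole array, so those limits were not covered. The number of arrays limits the precision.

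Per-array values are given for genes that passed a test, for the 3 with the smallest p where under 3 passed, and for some others chosen after their values were seen (Cxcl9, Cxcl10, Ccl2, Ccr2 and, in part, Cxcl2 and Ccr10). The genes, the marker lists and the tests were chosen with earlier results of these data known. The same-numbered control arrays of both genotypes deviated together (r = 0.234, 0.368 and 0.552 over genes), so the replicate number was taken to pair the controls. They also shared a column of the slide, so number and column cannot be told apart there. Controls with unlike numbers were not correlated for comparison. In the other comparisons same-numbered arrays share a number, but none lay in the same column of the same slide.

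Alternatives were scaling to the 75th percentile, normexp background correction (offset 50), the authors' log2 table, other filters, slide as a fixed or random block, the replicate block, array weights, the mean over probes, and leaving out each array in turn or control 3 of both genotypes. Counts of ligand and receptor pairs under these were added after seeing the data. One gene of the set entered the counts and is not reported by name or drawn.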

Additional observations from a re-analysis of the deposited data

Results flagged for a closer look

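Among 138 combinations of gene and group with at least 4 arrays, 9 had 1 array whose gap to its nearest neighbour took up more of the group's range than Dixon's 95% limit allows. Chance flags about 1 in 20 groups, and genes that move together are not separate cases. WT control 3 was that array 6 times. It read 9.44 for Ccl3 (next highest 7.26), 10.61 for Ccl4 (7.83), 7.59 for Ccr9 (5.73), 11.71 for Cxcl16 (10.38), 11.28 for Cxcr6 (9.16) and 9.82 for Ccrl2 (7.52). WT CCl4 2 was that array 3 times, at 14.72 for Ccl9 (14.18), 7.37 for Ccl17 (5.97) and 10.75 for Ccr2 (9.57). Every one of these was the highest of its group. Control 3 of the Lcn2-/- mice, in a group of 3, was not examined this way.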

How the results depend on the processing

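The WT response had 9 genes past the threshold and the Lcn2-/- response 8. With slide as a fixed block these were 3 and 1, and 0 pairs were both higher in Lcn2-/-. With array weights there were 15 genes (28.7% of all genes, against 12.2%) and 4 pairs both higher in Lcn2-/-, and 5 genes between genotypes in controls (5.16% of all genes, against 0.518%). Without control 3 of both genotypes there were 24 genes and 6 pairs in WT, 16 genes and 4 pairs in Lcn2-/-, and 1 gene between genotypes in controls. That last count, 2 with all arrays, was also 1 under normexp, with the mean over probes and under the replicate block. The replicate block otherwise gave 10 genes in WT, where 1 pair was both higher instead of 0, 8 in Lcn2-/-, 1 between genotypes under CCl4 and 0 in the interaction, and it changed no other call count by over 1.5 times. The mean over probes also gave 1 pair in WT. Leaving out each array in turn gave 8 to 18 genes in WT (18 without WT control 3, where 20.9% of all genes were called against 16.7%, and 8 without WT control 1 or 2, at 10.2% and 10.5%), 6 to 13 in Lcn2-/- (13 without Lcn2-/- control 3, at 12.4% of all genes against 12.2%, and 6 without Lcn2-/- control 1, at 6.93%; without Lcn2-/- control 2 there were 8, at 6.92%), 1 to 2 between genotypes under CCl4 (2 without Lcn2-/- CCl4 2), 1 to 2 in controls (1 without WT control 1, 2 or 3, Lcn2-/- control 1 or 3, WT CCl4 4 or Lcn2-/- CCl4 3) and 0 to 0 in the interaction, with 0 to 2 pairs in WT (2 without WT control 3) and 0 to 3 in Lcn2-/- (0 without Lcn2-/- control 1, 3 without Lcn2-/- control 3). The cause of these shifts was not tested, other than that fewer arrays entered some fits. For the genes past the threshold in a comparison and a few of the nearest to it, over all alternatives, 674 values were on the same side of the threshold, 46 lost it, 6 gained it and 0 changed direction with a call. These leave out most of the genes that passed only without the control 3 arrays. Scaling to the 75th percentile moved the median of all genes from -0.03 to -0.162 in WT and from -0.023 to -0.141 in Lcn2-/-, and turned the sign of 2 and 4 of the 46 changes. It called 6 genes higher and 5 lower in WT against 6 and 3, with 21.1% of all genes called. Genes near background, such as Cxcr1, Cxcr2, Cxcr5, Cxcl2, Cxcl5, Ccl7, Ccl17, Xcl1 and Ccr10, and Ccl8 in Lcn2-/-, have no reliable fold here.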
